A study of Mus musculus with 2 samples.

Results

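The genes described here are 10 genes of tissue macrophages, among them the 3 chains of complement C1q, out of 22180 mouse genes measured in nasal mucosa exposed to papain or to phosphate-buffered saline (PBS). They are Adgre1, Csf1r, Cd68, Cd14, C1qa, C1qb, C1qc, Cd163, Ms4a7 and Fcgr1. They were chosen by gene symbol in the platform annotation, and each was carried by exactly 1 probe set that named no other gene. The papain group was nasal mucosa of C57BL/6 mice aged 4 to 6 weeks at day 3 of papain, a cysteine protease from papaya that serves as a model allergen. The PBS group was the same tissue of the same strain and age at day 3 of PBS, the vehicle. A single Affymetrix Mouse Gene 2.0 ST array stood for each group, and per the series' design 4 samples went into a pooled specimen, whether for each array or for both is not stated. Since each group is 1 array, the differences below have no replicate check and no test, and the small number of arrays limits their precision.

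Macrophages are resident phagocytes that depend on signals through the CSF1 receptor for survival and that sense microbes, take up antibody-coated particles and clear dying cells. C1q is the recognition part of the classical complement pathway. It binds antibody in immune complexes and material on dying cells, and its 3 chains, unlike most complement proteins, are made largely by macrophages and related cells and not by the liver. The study title names IL-33, innate immune cells and the epithelial barrier, and the comparison asks how the mucosa differed after the protease.

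All values are log2 signals as deposited, and ratios are papain over PBS on the log2 scale. The median signal over all 41345 probe sets was 5.70 with papain and 5.64 with PBS, and the median log2 ratio of all named genes was -0.03. Signals were read against 31 genes of other tissues, such as those of liver, testis and retina. Their median was 4.94 with papain and 4.97 with PBS, called the background level here, and their 95th percentile was 6.49 with papain and 5.65 with PBS. Odf1, a gene of sperm tails in that list, read 10.48 with papain and 10.91 with PBS, so the 95th percentile is not a detection call. The papain limit also rests on Vil1, a gene of intestinal epithelium that read 6.92 with papain and 4.99 with PBS. Without Vil1, a setting chosen after seeing the data, the limit was 5.97 with papain and 5.65 with PBS, which leaves Cd163 as the 1 gene of the 10 under it. All 7 measured genes of nasal and olfactory epithelium exceeded the 95th percentile in both arrays, as did 5 of 6 general leukocyte genes. Passing this limit, as Odf1 also did, does not identify a tissue. The error of a probe set was taken from the 224 genes whose 2 brightest probe sets both had a mean signal of at least 6.29, the median over named genes. From the disagreement of their ratios, a single probe set's log2 ratio had an SD of 0.24. This SD covers probe sets on these 2 arrays and no spread between animals.

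None of the 10 genes differed 2-fold between the arrays. The count at least 2-fold higher in papain was 0 of 10, where 1.83% of all named genes were, and the count at least 2-fold lower was 0 of 10, where 0.73% were. At 1.5-fold the counts were also 0 higher and 0 lower, against 5.38% and 4.34% of all named genes. Counts of 0 in 10 are close to these shares and are no result about the 10 genes. Adgre1, Fcgr1, C1qa, C1qc and Ms4a7 had ratios above 0 and Cd14, Cd68, C1qb, Csf1r and Cd163 below, a split of 5 and 5, where 45.6% of all named genes were above 0 and 54.4% below. The ratios ran from -0.52 for Cd14 to 0.33 for Adgre1, with a median of 0.05. Across the 10 genes they had an SD of 0.29, against 0.50 across the 11691 named genes whose brighter signal reached 6.29. Only Adgre1, Cd68 and Cd14 lay further from 0 than the SD of 1 probe set, and only Cd14 further than 2 such SDs, in the deposited values. C1qa also passed 1 SD in 4 alternative settings, at 0.27 to 0.37, and C1qc and Fcgr1 did after loess, at 0.27 and 0.28. With background subtracted C1qb, at -0.25, and Fcgr1, at 0.30, passed it too. Cd14 no longer passed 2 SDs after quantile normalization or loess, while Adgre1 and Cd68 passed them with background subtracted. In bulk tissue the number of cells of a type and their RNA per cell cannot be told apart. A ratio near 0 does not show whether both moved in opposite directions.

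**Figure D1:**
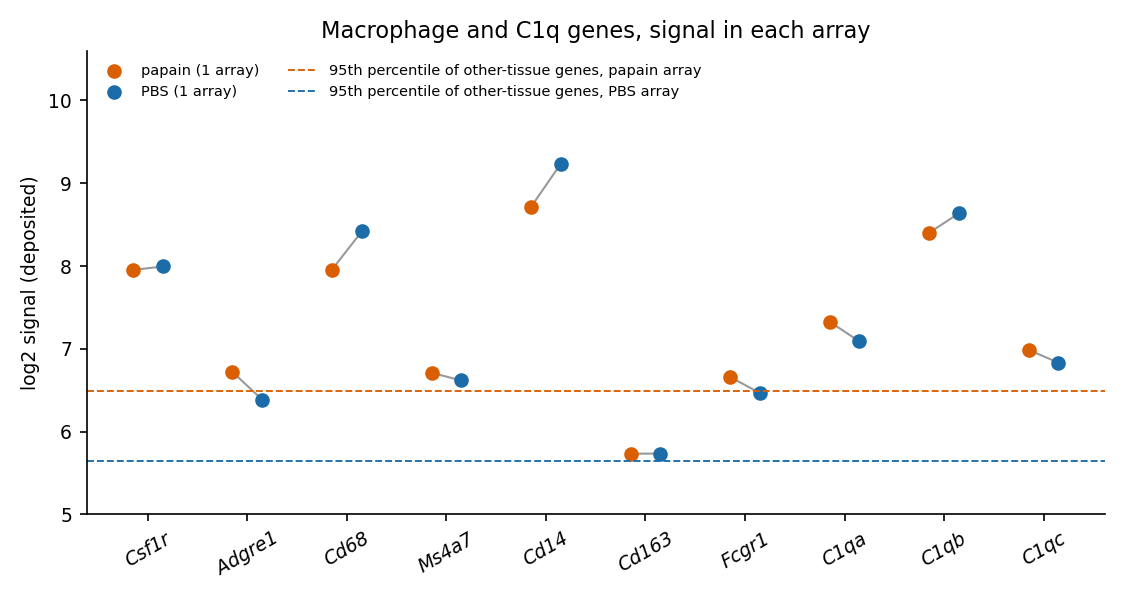
Log2 signal (vertical axis) of each of the 10 genes (horizontal axis) in the papain array (left point of each pair) and the PBS array (right point), 1 array per group and no error bars. Dashed lines mark the 95th percentile of genes of other tissues, 6.49 with papain and 5.65 with PBS; Cd163, at 5.73 in both, is the 1 gene under its papain line.

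The receptor that keeps macrophages alive was at nearly the same signal in both arrays. Csf1r, the receptor tyrosine kinase for CSF1 and IL-34, read 7.95 with papain and 7.99 with PBS. Its ratio was -0.04, or 0.972 of the PBS signal, and it turned to 0.03 after quantile normalization and 0.07 after loess on the mean signal, so it has no settled sign. Its ligand genes were close as well. Csf1 read 6.86 with papain and 6.94 with PBS, a ratio of -0.08. Il34, the other ligand gene, read 6.04 with papain, under the 95th percentile there unless Vil1 is left out, and 5.89 with PBS, a ratio of 0.16. Of the 7 genes of this axis, which also holds the receptors of related growth factors, 0 passed 1.5-fold in either direction. The shares of all named genes that did were 5.38% higher and 4.34% lower. Csf2ra, the receptor chain for GM-CSF, had a ratio of 0.13, and Csf3r, the G-CSF receptor of granulocytes, had -0.14.

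Adgre1 encodes an adhesion G protein-coupled receptor by which mouse macrophages are commonly identified. Its signal was 6.72 with papain and 6.39 with PBS. The ratio of 0.33, or 1.26-fold, was the highest of the 10, and 26.7% of the named genes above the 6.29 floor had a ratio at least that far from 0. The papain signal stood 0.23 above the 95th percentile of its array, or 0.75 without Vil1, and the PBS signal 0.74 above that of its own. When the background level was subtracted from each array before the ratio was taken, a setting chosen after seeing the data, the ratio became 0.52. Ms4a7, a four-span membrane protein of macrophages, read 6.71 with papain and 6.62 with PBS, a ratio of 0.09 that lies well within the SD of a probe set.

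Cd68 went the other way from Adgre1. It encodes a heavily glycosylated protein of lysosomes and endosomes in phagocytes, and it read 7.96 with papain and 8.42 with PBS. The ratio was -0.46, or 0.727 of the PBS signal, and it stayed between -0.51 and -0.36 in all 5 settings run for it besides the deposited values. Cd68 is not particular to macrophages of the mucosa: osteoclasts, the bone-resorbing cells of the same lineage, carry both Cd68 and Csf1r. Of 9 osteoclast markers, 7 were below 0 and 2 above, with a median of -0.32. Mmp9, a gelatinase, had -0.81, Acp5, the tartrate-resistant phosphatase, -0.77, Ctsk, the collagen-degrading cathepsin of osteoclasts, -0.44, and Atp6v0d2, a proton pump subunit, -0.42. Summed over the list, the linear signal was 3397 with papain and 4993 with PBS. Their part in the Cd68 ratio was not tested.

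Cd14 had the lowest ratio of the 10. It encodes the coreceptor that hands bacterial lipopolysaccharide to TLR4 and MD-2, on monocytes, macrophages and neutrophils. Its signal was 8.71 with papain and 9.24 with PBS. The ratio of -0.52, or 0.696 of the PBS signal, was -2.15 when divided by the SD of a probe set, and 6.27% of named genes above the floor had a lower one. It ran from -0.56 to -0.44 in the other settings. Other genes of the complex lay on both sides of 0. Tlr4 itself read 7.57 in both arrays, and Ly96, which encodes MD-2, had a ratio of 0.14. Lbp, the serum protein that loads CD14, had -0.34, the adaptor gene Myd88 -0.15 and Ticam1, the adaptor of the interferon branch, 0.42. Of these 8 genes 4 were above 0 and 4 below, and 0 passed 1.5-fold. Among all named genes 5.38% were at least 1.5-fold higher and 4.34% lower.

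**Figure D2:**
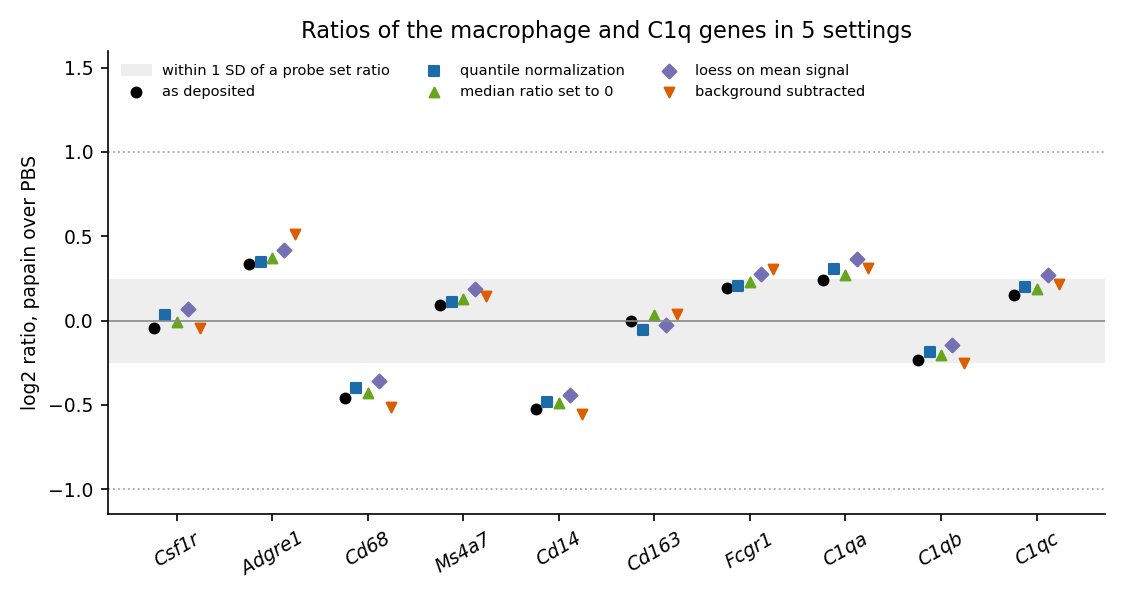
Log2 ratio of papain over PBS (vertical axis) for each of the 10 genes (horizontal axis) as deposited and in 4 alternative settings; the grey band is 1 SD of a probe set's ratio, 0.24, on either side of 0, and dotted lines mark 2-fold. Cd68 and Cd14 lie below the band and Adgre1 above it in each setting, C1qa leaves it in the 4 alternatives, C1qc, Fcgr1 and C1qb in some, and Csf1r and Cd163 cross 0.

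Cd163 was the dimmest of the 10 against the limits used here. It encodes the scavenger receptor that takes up haemoglobin bound to haptoglobin, on resident macrophages. It read 5.73 with papain, under the 95th percentile of that array, and 5.73 with PBS, 0.09 above that of its own. The ratio was 0.00, and with 1 of its signals under the limit it says little on the transcript. Other genes that handle haemoglobin and iron, which many cell types use, were mostly lower in the papain array. Of 7 measured, 6 had ratios below 0 and 1 above, with a median of -0.50, and 3 were at least 1.5-fold lower, against 4.34% of all named genes. Those were Blvrb, biliverdin reductase B, at -0.74, Hmox1, haem oxygenase, at -0.65 and Hp, haptoglobin, at -0.60. Slc40a1, the iron exporter ferroportin, had -0.50.

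Fcgr1 encodes the high-affinity receptor for IgG, found mainly on macrophages and monocytes. It read 6.66 with papain and 6.47 with PBS. The ratio was 0.19, or 1.14-fold, within the SD of a probe set. Among the other IgG receptor genes, Fcgr2b, the inhibitory receptor that B cells also carry, had the largest ratio at 0.64, with signals of 8.67 with papain and 8.03 with PBS. Fcgr3, an activating receptor also of neutrophils and NK cells, had 0.39. Fcer1g, the signalling chain that FcγRI needs at the surface, had -0.06, and Fcgrt, the transport receptor for IgG in epithelium and endothelium, had -0.58. Of the 5 genes of this list, 3 were above 0, 2 below and 1 at least 1.5-fold higher, against 5.38% of all named genes.

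The C1q genes form a cluster, and no protein-coding gene lies between them in the RefSeq gene order, which runs C1qb, C1qc, C1qa. The promoters of C1qb and C1qc are shown because these neighbours had ratios of opposite sign, at -0.24 and 0.15. Both lay within the SD of a probe set in the deposited values, so the opposite signs are uncertain. The promoter of Cd68, which had a lower ratio than any C1q gene, is shown with them. Each sequence is the 250 bases before the RefSeq start of the gene in GRCm38.p6, 5′ to 3′ on the gene's own strand, which is the minus strand for all 3. Capitals mark GAGGAA, the core of sites of the macrophage factor PU.1, or its reverse complement TTCCTC. C1qb lies at chr4:136886201-136886450, C1qc at chr4:136892915-136893164 and Cd68 at chr11:69666171-69666420.
C1qb: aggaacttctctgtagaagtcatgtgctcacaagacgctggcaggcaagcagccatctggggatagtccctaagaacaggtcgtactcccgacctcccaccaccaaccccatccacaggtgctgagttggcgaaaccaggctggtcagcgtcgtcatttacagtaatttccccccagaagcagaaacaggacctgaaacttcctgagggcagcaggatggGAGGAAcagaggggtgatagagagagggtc
C1qc: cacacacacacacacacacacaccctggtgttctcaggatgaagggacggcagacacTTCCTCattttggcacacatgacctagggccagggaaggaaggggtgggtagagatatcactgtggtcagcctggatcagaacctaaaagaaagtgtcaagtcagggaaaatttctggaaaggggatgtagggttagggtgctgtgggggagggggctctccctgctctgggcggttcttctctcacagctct
Cd68: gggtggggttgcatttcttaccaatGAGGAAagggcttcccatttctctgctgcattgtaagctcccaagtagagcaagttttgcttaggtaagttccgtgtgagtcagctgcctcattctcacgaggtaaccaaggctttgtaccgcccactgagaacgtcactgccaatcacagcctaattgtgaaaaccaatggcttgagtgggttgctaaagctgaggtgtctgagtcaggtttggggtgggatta
The motif was searched on both strands and is no palindrome, so each match is counted once. It occurred once in each of these 3 windows and once in that of Fcgr1, and not in the Cd163 window or the 2 Ms4a7 windows. These are the 6 genes among the 10 whose windows were searched, and the chromosome of Csf1r and Cd14 was left out for the 10. Of all 32851 promoter windows 23.3% held it, and a match of these letters is not a site. Spi1, the gene of PU.1 itself, read 6.35 with papain, under the 95th percentile there unless Vil1 is left out, and 6.68 with PBS. Its ratio was -0.32, and its part in the ratios of the 10 genes was not tested.

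The 3 C1q chains did not share a direction. C1qa read 7.33 with papain and 7.09 with PBS, a ratio of 0.24. C1qc read 6.99 with papain and 6.83 with PBS, a ratio of 0.15. C1qb read 8.40 with papain and 8.64 with PBS, a ratio of -0.24. The chains assemble into 1 molecule, yet C1qa and C1qb differed by 0.47 in their ratios, and C1qc and C1qb by 0.39. For scale, 2 probe sets of the same gene differed by a median of 0.19 and a 95th percentile of 0.67 over the 224 genes, so distances of this size also occur within single genes. The mean of the 3 ratios was 0.05, and the linear signals summed over the chains were 626 with papain and 648 with PBS. After loess the chains read 0.37, 0.27 and -0.14 for C1qa, C1qc and C1qb, and the signs stayed as they were in every setting run.

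**Figure D3:**
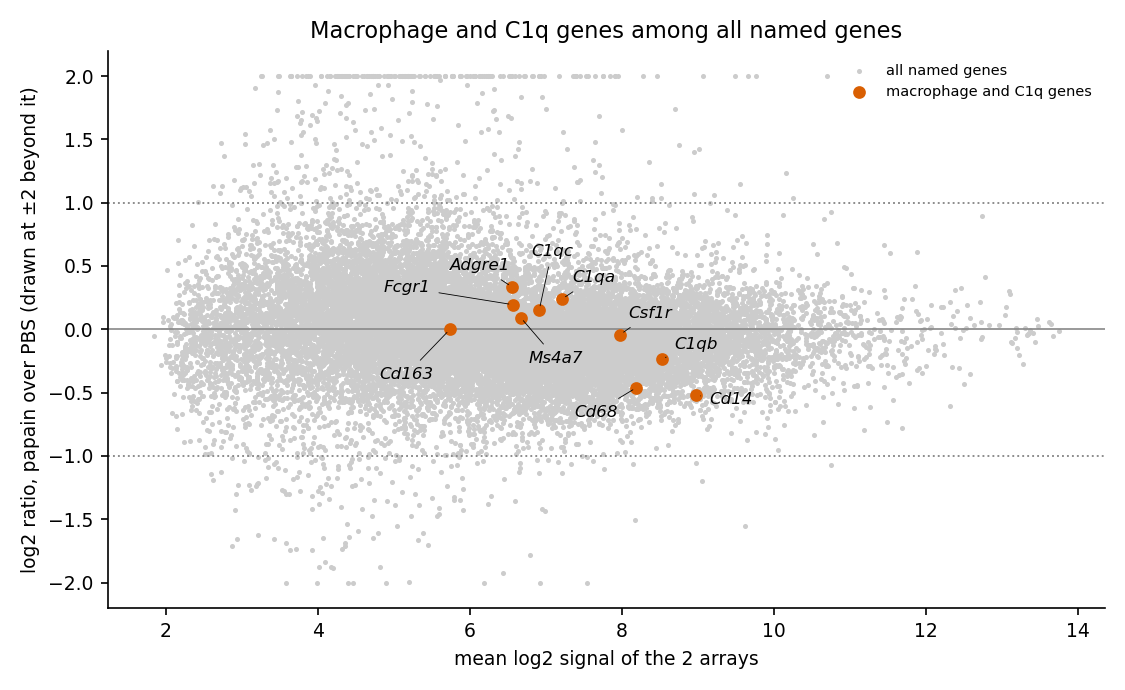
Log2 ratio of papain over PBS (vertical axis, drawn at 2 or -2 where it lies beyond) against the mean log2 signal of the 2 arrays (horizontal axis) for 22180 named genes in grey and the 10 macrophage and C1q genes in orange; dotted lines mark 2-fold. The 10 points lie inside the cloud, between -0.52 and 0.33.

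The 3 probe sets with the lowest ratios, those of Cd14, Cd68 and C1qb, were also the 3 with the highest signal among the 10. Ratios of all named genes above the floor had a median of -0.10, which loess on the mean signal brought to 0.00. After loess Cd14 remained at -0.44, Cd68 at -0.36 and C1qb at -0.14.

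Complement genes beyond C1q were mostly dim. Of 22 measured activation genes only 3 exceeded the 95th percentile in both arrays, and they were C1rl, C4b and Cfb, joined by Cfp if Vil1 is left out of the limit. C1ra, the protease that C1q engages first, read 5.37 with papain, under the 95th percentile, and 5.90 with PBS, a ratio of -0.53. C1s1, which cleaves C4 and C2, was under the background level in both arrays at 4.17 with papain and 3.89 with PBS, so no fold is given. C4b, the next component, read 6.68 with papain and 6.46 with PBS, a ratio of 0.22. C2, which forms a convertase with it, had -0.61, its papain signal of 5.13 near background, while C1rl, a relative of C1r, had -0.31 and Cfp, properdin of the alternative pathway, -0.28. Over the 22 genes 14 were above 0 and 8 below with a median of 0.10, which turned to -0.17 among those above the floor. C3 was not analysed here for want of a probe set with its symbol only.

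Complement regulators held the 1 gene past 2-fold in the complement lists. Cd55b, a rodent copy of the decay-accelerating factor gene Cd55, read 5.21 with papain, under the 95th percentile, and 6.29 with PBS, a ratio of -1.08. Cd55 had -0.52, with signals of 9.51 with papain and 10.03 with PBS. Cd59b, a copy of the gene for the inhibitor of the membrane attack complex, read 4.86 with papain, under background, and 5.76 with PBS, so no ratio is given. These copies share sequence with their partners, which leaves the value of each uncertain. Clu, clusterin, had 0.39, and the median of all 11 regulators was 0.04, which turned to -0.01 after loess and -0.02 after quantile normalization. Complement receptors, some of which macrophages carry, stayed within 1.5-fold in 11 of 11, and 5 of them exceeded the 95th percentile in both arrays. Of all named genes only 5.38% were at least 1.5-fold higher and 4.34% lower, so this count is no result about the receptors. Itgam, a chain of complement receptor 3, had -0.20, C3ar1, the receptor of the C3a fragment, -0.08, Cd93, once named a C1q receptor, 0.10, and Lair1, an inhibitory receptor that binds collagens and C1q, -0.39.

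Genes of other proteins with a C1q domain also lay on both sides of 0. The list of 21 measured genes, in which C1qbp binds C1q but has no such domain, had 8 ratios above 0 and 13 below and a median of -0.09. C1qtnf12, a secreted relative of adiponectin, had -0.56, Mmrn2, an endothelial matrix protein, -0.47, C1qbp -0.43, and Emilin2, an elastic fibre protein, 0.37. In the MS4A family, 9 of 13 genes other than Ms4a7 were above 0, with a median of 0.10. Ms4a4a, the neighbour of Ms4a7 in gene order, read 6.67 with papain and 6.01 with PBS, a ratio of 0.66. Ms4a6c had 0.10 and Ms4a6d, with a papain signal of 5.55, -0.12.

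**Figure D4:**
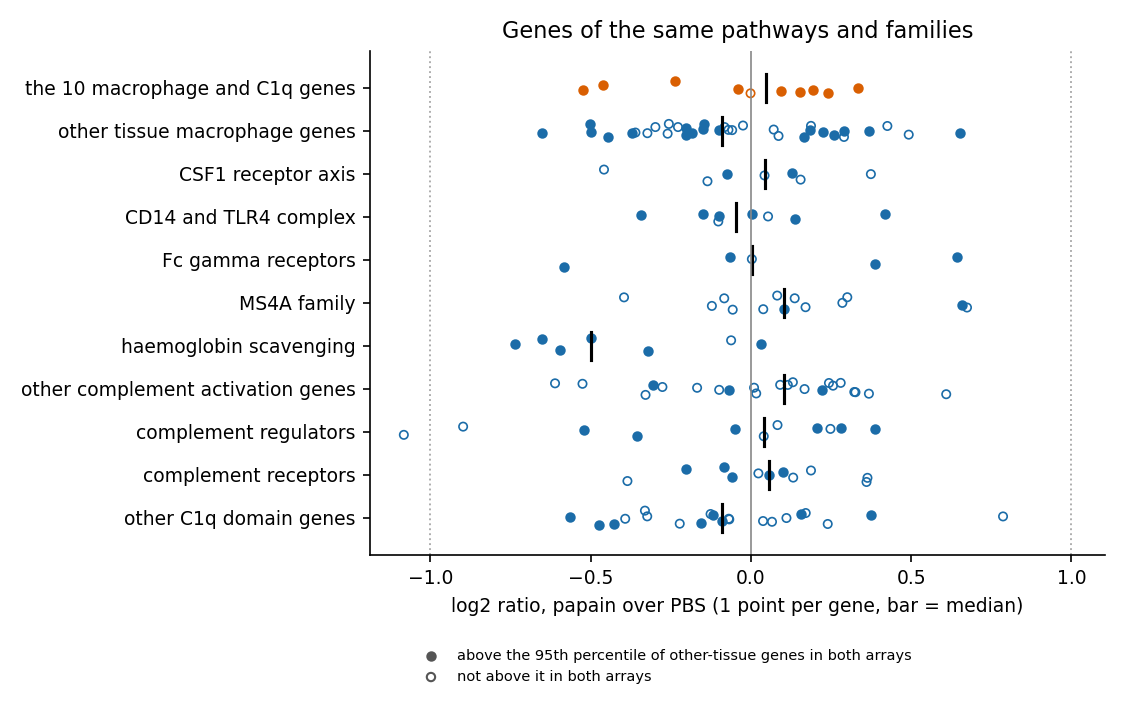
Log2 ratio of papain over PBS (horizontal axis) for each measured gene of the lists named at the left, with the 10 macrophage and C1q genes in orange on top; filled points exceed the 95th percentile of other-tissue genes in both arrays, open points do not, the bar is the list median and dotted lines mark 2-fold. Most genes lie within 2-fold, haemoglobin scavenging has the lowest median at -0.50, and Cd55b at -1.08 is the 1 point past 2-fold.

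A wider list of tissue macrophage genes had ratios on both sides of 0. Of 34 measured, 18 exceeded the 95th percentile in both arrays, 13 had ratios above 0 and 21 below, and the median was -0.09, where that of all named genes was -0.03. At least 1.5-fold higher was 1 gene, Ctss, the cathepsin that trims the invariant chain of MHC class II, with 9.79 with papain and 9.13 with PBS. At least 1.5-fold lower was 1 gene, Hmox1, given above. Among all named genes 5.38% were at least 1.5-fold higher and 4.34% lower. Of the genes that mark resident macrophages beside Cd163, those fixed by name were Mrc1, Lyve1 and Folr2. Mrc1, the mannose receptor, had 0.18, and Lyve1, a hyaluronan receptor also of lymphatic vessels, 0.26. Folr2, a folate receptor, had -0.08, with a papain signal of 6.30, under the 95th percentile there unless Vil1 is left out. Among others in the list, Maf had -0.37, Mertk -0.18 and Trem2 0.37. Gas6, a ligand of the receptors by which macrophages engulf dying cells, had -0.50.

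Markers of other cell types that could carry some of the 10 genes are given beside them. Monocyte markers had 6 of 9 ratios above 0 and a median of 0.33, with a summed linear signal of 2044 with papain and 1679 with PBS. Chil3, a chitinase-like protein, was the 1 gene of that list past 2-fold, with 6.68 in the papain array and 4.65, under background, in the PBS array. Itga4, an adhesion chain of leukocytes, had 0.90, Cd177, also a neutrophil gene, 0.70 and Ace -0.50. Ly6c2 and Nr4a1, also below 0, had -0.43 and -0.49. Cd177 was the brightest gene of the list, at 9.87 with papain and 9.16 with PBS, and weighs most in the monocyte sums. Neutrophil markers had 7 of 10 above 0, a median of 0.14 and sums of 7726 with papain and 6639 with PBS, which rest mainly on Ltf, a gland product too, at 0.21. Cxcr2, the neutrophil chemokine receptor, read 6.85 with papain and 5.59 with PBS, S100a9 had 0.20 and Ngp -0.26, while Ly6g, the defining surface marker, was under background in both. General leukocyte genes had 4 of 6 above 0 and a median of 0.12, with Ptprc, the gene of CD45, at 0.42, Cd53 at 0.32, Coro1a at 0.18 and Cd52 at -0.25. Their part in the ratios of the 10 genes was not tested.

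Dendritic cell markers had a median of 0.02, which turned to -0.01 after quantile normalization, with 6 of 9 above 0. Their sums were 1171 with papain and 1291 with PBS, and 1 gene exceeded the 95th percentile in both arrays. That gene, Cd209a, had -0.29. Eosinophil markers had 3 of 4 above 0 and a median of 0.27, with 0 past the 95th percentile in both arrays and sums of 148 with papain and 129 with PBS. Microglia are macrophages of the brain. Of 6 microglia markers 1 was above 0, with a median of -0.15 that turned to 0.07 among genes above the floor. Fcrls had 0.30, Sall1 -0.22 and Tmem119, also of bone, -0.15, and the list sums were 467 with papain and 485 with PBS. Siglech was counted both here and among the dendritic cell markers. These ratios do not show whether brain tissue was in either specimen. Among cells of the tissue, 7 of 7 genes of fibroblasts had negative ratios, their median being -0.56, with sums of 11663 with papain and 16925 with PBS. Col1a2 had -0.78, Pdgfrb -0.62, Col1a1 -0.60 and Col6a1 -0.56. All 7 vomeronasal neuron markers were above 0, with a median of 0.83, or 0.42 over the 4 that exceeded the 95th percentile in both arrays, and sums of 3470 with papain and 2436 with PBS. H2-M1 read 7.19 with papain and 3.31 with PBS, Calr4 7.94 with papain and 4.59 with PBS, and H2-M10.5 7.47 with papain and 4.43 with PBS. The PBS signals of these 3 were under background, and Trpc2, the transduction channel of these neurons, had a ratio of 0.83. The 2 specimens thus also differed in markers of stroma and of vomeronasal tissue, and the part of this in the ratios of the macrophage and C1q genes was not tested.

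**Figure D5:**
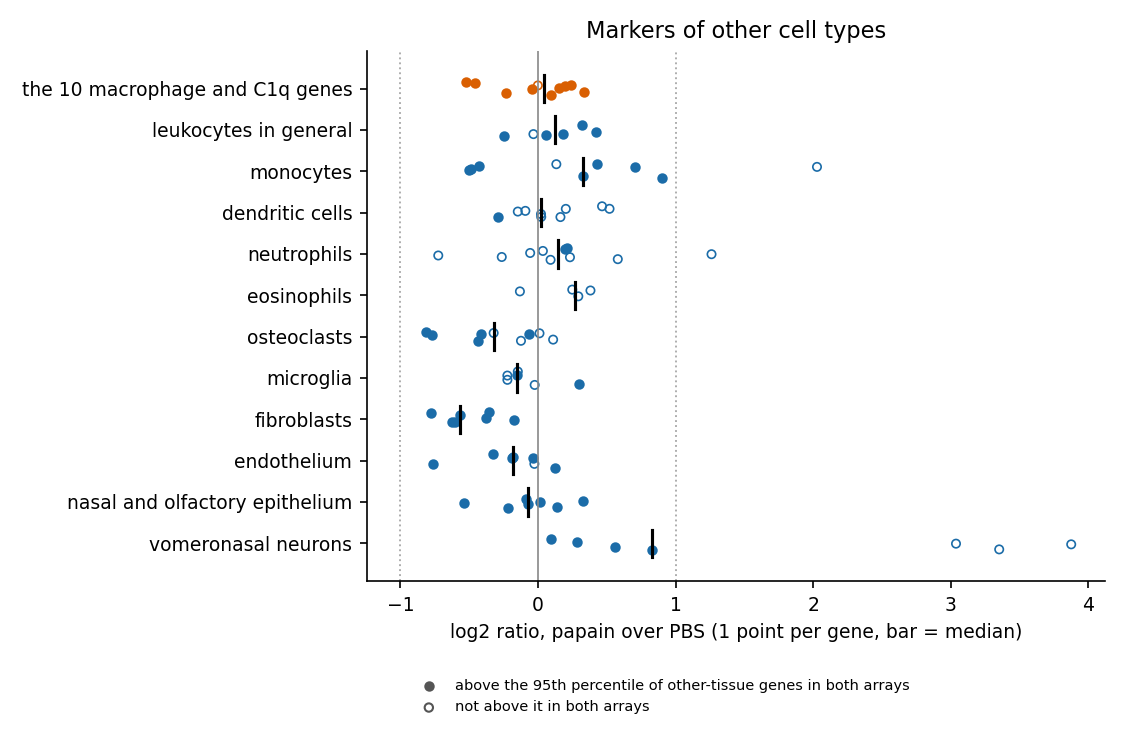
Log2 ratio of papain over PBS (horizontal axis) for each measured marker of the cell types named at the left, with the 10 macrophage and C1q genes in orange on top; filled points exceed the 95th percentile of other-tissue genes in both arrays, open points do not, the bar is the list median and dotted lines mark 2-fold. Fibroblast genes lie below 0 around a median of -0.56, vomeronasal markers above 0 with a median of 0.83, and the 10 genes on either side of 0 with a median of 0.05.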

How the data were processed

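Total RNA of nasal mucosa was measured on 2 arrays, papain and PBS. The values that the authors deposited are log2 signals, a scale read from the values. Per the submitters' processing notes Transcriptome Analysis Console 4.0 was used. How signals were background-corrected, summarised and normalized is not given in the sources used here, and scaling both arrays alike would hide unequal total RNA.

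Of 41345 probe sets, 23521 carried 1 gene symbol, 1814 several and 16010 none, and only the first were named. The brightest row per gene by mean of both arrays was taken, and the ratio was papain minus PBS. No test, p-value or replicate SD could be computed. The 10 genes, the 24 other lists and the 31 measured of 36 background genes were chosen with earlier results of these data known. Named were the 10 genes, 12 genes fixed by name, and in each list up to 4 genes. The latter were farthest from 0 among genes whose brighter signal passed the 95th percentile of background genes in its own array. That limit was 6.49 with papain and 5.65 with PBS. Brighter signals between these limits thus gave a name only to genes lower with papain, which favours negative ratios among the dimmer genes named. Genes named beyond this, such as Spi1, Ly6g, Cfb, Ly6c2 and Maf, were chosen after their values were seen. No gene was named for a like pattern, since 2 arrays give 1 difference. The counting step was tested on simulated data. Promoters are from RefSeq. Python 3.11.15, numpy 2.4.6, pandas 2.3.3, statsmodels 0.14.6 and matplotlib 3.10.9 were used.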

Additional observations from a re-analysis of the deposited data

Results flagged for a closer look

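Of 17824 probe sets that no comparison used, since they carried several gene symbols or none, 236 (1.32%) had a papain signal 2-fold or more above the PBS signal and past the 95th percentile of other-tissue genes in the papain array. In the other direction, 212 (1.19%) had a papain signal 2-fold or more below the PBS signal, with the PBS signal past its own 95th percentile. The share higher is under the 1.83% of named genes at least 2-fold higher. The share lower is above the 0.73% of named genes at least 2-fold lower. Both shares of named genes were taken with no limit on signal, and the limits used here differ, 6.49 with papain and 5.65 with PBS. None of the probe sets carried the symbol of any of the 10 macrophage and C1q genes.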

How the results depend on the processing

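The settings tried were loess on the mean signal (span 0.3), quantile normalization, a median ratio set to 0, averaging the rows of a gene, a floor at 6.29, a 1.5-fold threshold and, chosen after seeing the data, subtraction of the background level and leaving Vil1 out of the 95th percentile. The counts of the 10 genes past the fold threshold were 0 in each setting that bears on them. The number with ratios above 0 was 5 as deposited and 5 or 6 otherwise, and the median ran from 0.05 to 0.13. No single ratio of the 10 moved by more than 0.13 in the planned settings. The sign of Csf1r turned under quantile normalization and loess, and that of Cd163 when the median ratio was set to 0 and when background was subtracted. Averaging rows had no effect on the 10 genes, which have 1 row each. That averaging also left most list medians as they were, and setting the median ratio to 0 shifts every ratio by the same 0.03. Ratios and medians in these settings were thus mostly bound to stay within the SD of a probe set. Of 195 alternative values, these included, 192 stayed within that SD or within 1.5 times a count. The other 3 were list medians over genes above the floor only, -0.56 for B and plasma cells, 0.38 for the MS4A family and -0.17 for complement activation genes, against -0.08, 0.10 and 0.10 over all their genes, since fewer genes remained. Eosinophil markers have no value there because 0 were above the floor. No paired analysis was possible because each group is 1 array and the labels carry no replicate numbers. Dim signal limits what can be read from Cd163, Fcgr1, Ms4a7 and Adgre1.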

Other observations

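Lymphocyte, mast cell and vessel markers, which carry few of the 10 genes, were examined beside them. Of 9 T and NK cell markers 0 exceeded the 95th percentile of other-tissue genes in both arrays, and their median ratio was 0.04, which turned to -0.02 after quantile normalization. B and plasma cell markers, whose IgG would be bound by the Fcgr1 product and by C1q, had 2 of 7 above 0 and a median of -0.08. Ighm, the heavy chain gene of IgM, read 7.93 with papain and 8.49 with PBS, a ratio of -0.56. Jchain, which joins secreted IgA and IgM, read 4.83 with papain, under background, and 5.67 with PBS. Mast cell and basophil markers had a median of 0.00, but 5 of 8 were under background in both arrays. The 2 that exceeded the 95th percentile in both were Cpa3, a mast cell protease, at 0.47 and Kit at -0.31. Endothelial markers had 1 of 7 above 0 and a median of -0.18, with Plvap, a protein of fenestrated vessels, at -0.77, Cdh5 at -0.33, Emcn at -0.19 and Pecam1 at -0.18. Epithelial markers had a median of -0.08, with Foxj1 of ciliated cells at -0.54, Muc5b, a mucin, at 0.32, Krt18 at -0.22 and Epcam at 0.14.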
